A study of Mus musculus with 21 samples.

Results

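The BCL2 family decides whether a cell keeps or opens its outer mitochondrial membrane, and 10 of its genes were followed here in mouse B-lineage cells: Bcl2, Bcl2l1, Mcl1, Bcl2l11, Bbc3, Pmaip1, Bad, Bid, Bak1 and Bmf. Members were taken as every probe set (a group of short probes against a transcript) to which the platform annotation gives 1 of these symbols and no other. That rule gave 32 of the 45037 probe sets that are not controls, and 10 of the 18193 genes with a symbol of their own. Mcl1 has 6 probe sets, Bcl2 and Bcl2l11 have 5 each, Bcl2l1 has 4, Bid and Bmf have 3 each, Bad and Bak1 have 2 each, and Bbc3 and Pmaip1 have 1 each.

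Transcript levels came from 21 Affymetrix mouse expression arrays in 7 groups of 3. In 4 groups the RNA was from bone marrow cells sorted for B220, a surface form of CD45 carried by B-lineage cells, in mice that were wild-type, transgenic for LAP (a form of C/EBPβ that activates transcription, from the gene Cebpb), knockout for Blnk, or both. In 3 groups it was from LB31, a single pre-B acute lymphoblastic leukaemia line that arose in a Blnk knockout mouse, so that all 3 share that background, after transduction with pMY, a retroviral vector, either empty, with a Blnk cDNA (called BLNK here), or with the cDNA of a Blnk mutant that has lost its function (YF). The line was kept with 5 ng/ml of interleukin 7, a survival and growth factor of B-cell precursors, and the marrow cells were used after sorting. BLNK is an adaptor that couples the B-cell and pre-B-cell receptors to signalling enzymes. The mice's age and strain, the promoter behind the LAP transgene, and whether replicate arrays came from separate animals or cultures are not given in the sources used here. Accordingly p-values measure the spread between these arrays, which may be technical.

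As background, BCL2, BCL-XL (from Bcl2l1) and MCL1 are the survival proteins of the family: they bind and restrain their partners. BAK (from Bak1) is an effector that forms the pore, and BIM (from Bcl2l11), PUMA (Bbc3), NOXA (Pmaip1), BAD, BID and BMF are BH3-only proteins, which neutralise survival proteins or activate effectors. In mouse B-cell development MCL1 is needed from early precursors on, BCL-XL is known for keeping pre-B cells alive, BCL2 for keeping mature B cells alive, and BIM for removing B cells that bind self antigen or lose cytokine. NOXA binds MCL1 with preference.

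Promoter windows are shown for 2 survival genes, Mcl1 and Bcl2, and 2 BH3-only genes, Bcl2l11 and Bmf, whose called differences are described below. Each window holds 300 bases from RefSeq (assembly GRCm38.p6), 5′ to 3′ on the strand of the gene, with 250 bases before and 50 after an annotated start. The windows are Mcl1 chr3:95658471-95658770 (plus strand), Bcl2 chr1:106714241-106714540 (minus strand), Bcl2l11 chr2:128125788-128126087 (plus strand) and 1 of 3 annotated Bmf starts, chr2:118547550-118547849 (minus strand). Capitals mark a match to 1 of 3 motifs, each searched on both strands: TTGCNNAA for C/EBP factors, TTCNNNGAA for STAT factors and GTAAACA for FOXO factors.
Mcl1 promoter: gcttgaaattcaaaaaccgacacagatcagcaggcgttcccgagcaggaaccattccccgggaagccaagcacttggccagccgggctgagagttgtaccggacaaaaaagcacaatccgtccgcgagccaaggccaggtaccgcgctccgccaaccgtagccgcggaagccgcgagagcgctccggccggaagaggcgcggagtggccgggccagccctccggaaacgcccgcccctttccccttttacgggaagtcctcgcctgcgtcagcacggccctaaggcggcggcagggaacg
Bcl2 promoter: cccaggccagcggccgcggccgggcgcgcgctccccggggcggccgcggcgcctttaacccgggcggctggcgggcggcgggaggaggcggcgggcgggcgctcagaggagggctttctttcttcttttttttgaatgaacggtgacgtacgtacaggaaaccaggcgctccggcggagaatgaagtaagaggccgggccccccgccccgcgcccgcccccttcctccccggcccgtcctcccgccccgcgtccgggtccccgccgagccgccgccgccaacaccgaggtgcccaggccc
Bcl2l11 promoter: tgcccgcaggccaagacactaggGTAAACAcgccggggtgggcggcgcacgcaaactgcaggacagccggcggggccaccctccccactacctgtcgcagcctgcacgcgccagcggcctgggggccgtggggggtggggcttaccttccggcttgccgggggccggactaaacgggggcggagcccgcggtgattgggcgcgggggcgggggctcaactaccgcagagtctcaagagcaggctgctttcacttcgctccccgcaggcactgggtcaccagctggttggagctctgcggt
Bmf promoter: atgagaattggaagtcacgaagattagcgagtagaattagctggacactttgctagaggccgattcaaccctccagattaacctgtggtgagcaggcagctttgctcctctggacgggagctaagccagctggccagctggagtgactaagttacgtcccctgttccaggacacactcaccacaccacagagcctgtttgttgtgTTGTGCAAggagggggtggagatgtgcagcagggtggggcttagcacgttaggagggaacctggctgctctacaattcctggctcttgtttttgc

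The Mcl1 and Bcl2 windows hold none of the 3 motifs. The Bcl2l11 window shown has the FOXO letters starting 227 bases before its start, and the Bmf window shown has the C/EBP letters starting 45 bases before its start. A further Bcl2l11 start (window chr2:128127325-128127624) and a further Bmf start (window chr2:118549637-118549936) hold none of the motifs. Of 32851 mouse promoter windows of this length, 10.8% hold the C/EBP motif, 8.3% the STAT motif and 3.65% the FOXO motif. Windows were read for 9 members, 17 in all: 3 of them held the C/EBP motif (2 starts of Bmf and that of Bid), 2 the FOXO motif (a start of Bcl2l11 and 1 of Bbc3), and 0 the STAT motif. The search of member windows left out chromosome 18 and with it Pmaip1, so these counts do not cover that gene. These matches describe letters only.

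All values below are log2 signals after quantile normalization of the 21 arrays, as mean ± SD of n = 3 arrays, and every change is a difference of log2 signals ± SE from limma with a Benjamini-Hochberg adjusted p, called when that p was under 0.05. Levels can be compared between groups for 1 probe set but not between probe sets. Replicate arrays correlated at r between 0.963 and 0.98. As deposited, the arrays were not on 1 scale: with no between-array normalization the median of all probe sets was 0.37 higher in knockout-labelled than in wild-type marrow, and in LB31 with the empty vector it was lower than in that marrow, by -0.65. The changes below are relative to those shifts. The median deposited signal of empty-vector array 1 was 19.6, against 15.9 and 15.5 on the other empty-vector arrays, and LAP transgenic array 3 was high in neutrophil genes, so both were also left out in turn. Without empty-vector array 1 all 22 member calls of LB31 against knockout-labelled marrow and all 18 against LAP knockout-labelled marrow were kept, none of them moving by more than 0.212 and 0.171 on the log2 scale, and 3 of 4 were kept for BLNK against the empty vector. Without LAP transgenic array 3, 11 of 13 member calls were kept for LAP knockout-labelled against LAP transgenic marrow (largest move 0.177), and all 4 of the interaction. The single Blnk probe set did not follow the labels (12.44 ± 0.09 in wild-type and 12.37 ± 0.24 in knockout-labelled marrow). In LB31 it read 9.63 ± 0.02 with the empty vector, 9.4 ± 0.08 with YF and 8.56 ± 0.06 with BLNK, and so was lowest in the cells labelled as given the cDNA. Where its target lies relative to the deletion and the cDNA is not given, so it checks neither label, and the groups are named by their labels. A Cebpb probe set, 1427844_a_at, followed the transgene, from 5.43 ± 0.10 in wild-type to 10.05 ± 0.15 in LAP transgenic marrow, and stood at 10.22 ± 0.10 in empty-vector LB31. The other Cebpb probe set, 1418901_at, did not follow it, at 7.28 ± 0.23 in wild-type and 7.04 ± 0.64 in knockout-labelled marrow, against 8.31 ± 0.99 and 7.2 ± 0.39 in the matching groups with the transgene, and 4.62 ± 0.42 in empty-vector LB31.

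Signals of genes that mark cell types and stages differed between groups. Genes that mark B-lineage cells in general (7 measured of 8 listed, such as Cd79a and Ebf1) had a mean signal of 10.05 to 10.74 on the marrow arrays and 9.91 to 10.04 on the LB31 arrays. The mean of 14 immature and mature B-cell genes ran from 11.02 to 11.21 in wild-type, 10.60 to 10.74 in LAP transgenic, 9.34 to 9.75 in knockout-labelled and 7.0 to 7.24 in LAP knockout-labelled marrow, and was lower still in LB31. Of these 14 genes 13 fell and 0 rose in knockout-labelled against wild-type marrow, and 14 fell in LAP knockout-labelled marrow. The 12 pro-B and large pre-B genes ran from 9.28 to 9.66 in the wild-type and LAP transgenic arrays and from 10.81 to 11.13 in both knockout-labelled groups. Other lists moved as well. Against knockout-labelled marrow, LAP knockout-labelled marrow had 14 of 14 immature and mature B genes lower (median -2.47), 6 of 8 plasmacytoid dendritic genes lower (median -1.49) and 7 of 8 megakaryocyte genes higher (median 1.29). Against wild-type it had 8 of 8 megakaryocyte, 10 of 11 cell cycle (median 0.51) and 3 of 10 neutrophil genes (median 1.08) higher. In LAP transgenic against wild-type marrow 2 of 11 monocyte and macrophage genes were higher (median 0.88) and 0 of 10 neutrophil genes were called (median 0.79). In LB31, 7 of the 9 pro-B and large pre-B genes tested were lower with BLNK than with the empty vector (median -0.30). In such bulk samples, fewer cells of a type and less RNA per cell cannot be told apart, and the part of these shifts in the changes of Bcl2, Mcl1, Pmaip1, Bmf and the other members below was not tested.

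Marrow labelled Blnk knockout had lower Bcl2 and Bcl2l11 signals than wild-type marrow, lower signals from 3 of 6 Mcl1 probe sets, and higher signals from Bak1 and Bid. Of the 29 member probe sets tested in marrow, 3 were called higher, where 6.24% of all 30128 probe sets tested were, and 10 were called lower, where 6.45% were. The median change was -0.29 over the members and 0.00 over all probe sets, and the median size 0.47 against 0.24. With no between-array normalization the split was 6 higher and 5 lower. The count of 13 dropped to 8 without wild-type array 3 and to 8 without knockout-labelled array 1. The median of the members was pulled by Bcl2 and Mcl1, which together hold 11 of the probe sets tested, so it does not count 29 separate genes.

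LAP alone raised Pmaip1 and moved no other member past the test. In LAP transgenic against wild-type marrow, 1 member probe set was called higher (1.23% of all) and 0 lower (1.36% of all), with 4 at an unadjusted p under 0.05. The same single member was called without LAP transgenic array 3.

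LAP knockout-labelled marrow, with both changes, had lower Bcl2 and Mcl1 and higher Pmaip1, Bak1 and Bad than wild-type marrow. Here 3 member probe sets were called higher (12.6% of all) and 11 lower (12.6% of all), or 6 and 10 with no between-array normalization. Against knockout-labelled marrow, 1 was called higher (2.03% of all), that of Pmaip1, and 6 lower (3.17% of all), which were the 6 of Mcl1. Against LAP transgenic marrow, 1 was called higher (11.3% of all) and 12 lower (9.86% of all), or 5 and 10 with no between-array normalization. These comparisons share groups with one another, so their values are set side by side and not counted as separate support. For the interaction, which subtracts the effect of LAP without the knockout label from its effect with that label, 0 members were called higher (0.329% of all) and 4 lower (0.85% of all), each of them an Mcl1 probe set.

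**Figure D1:**
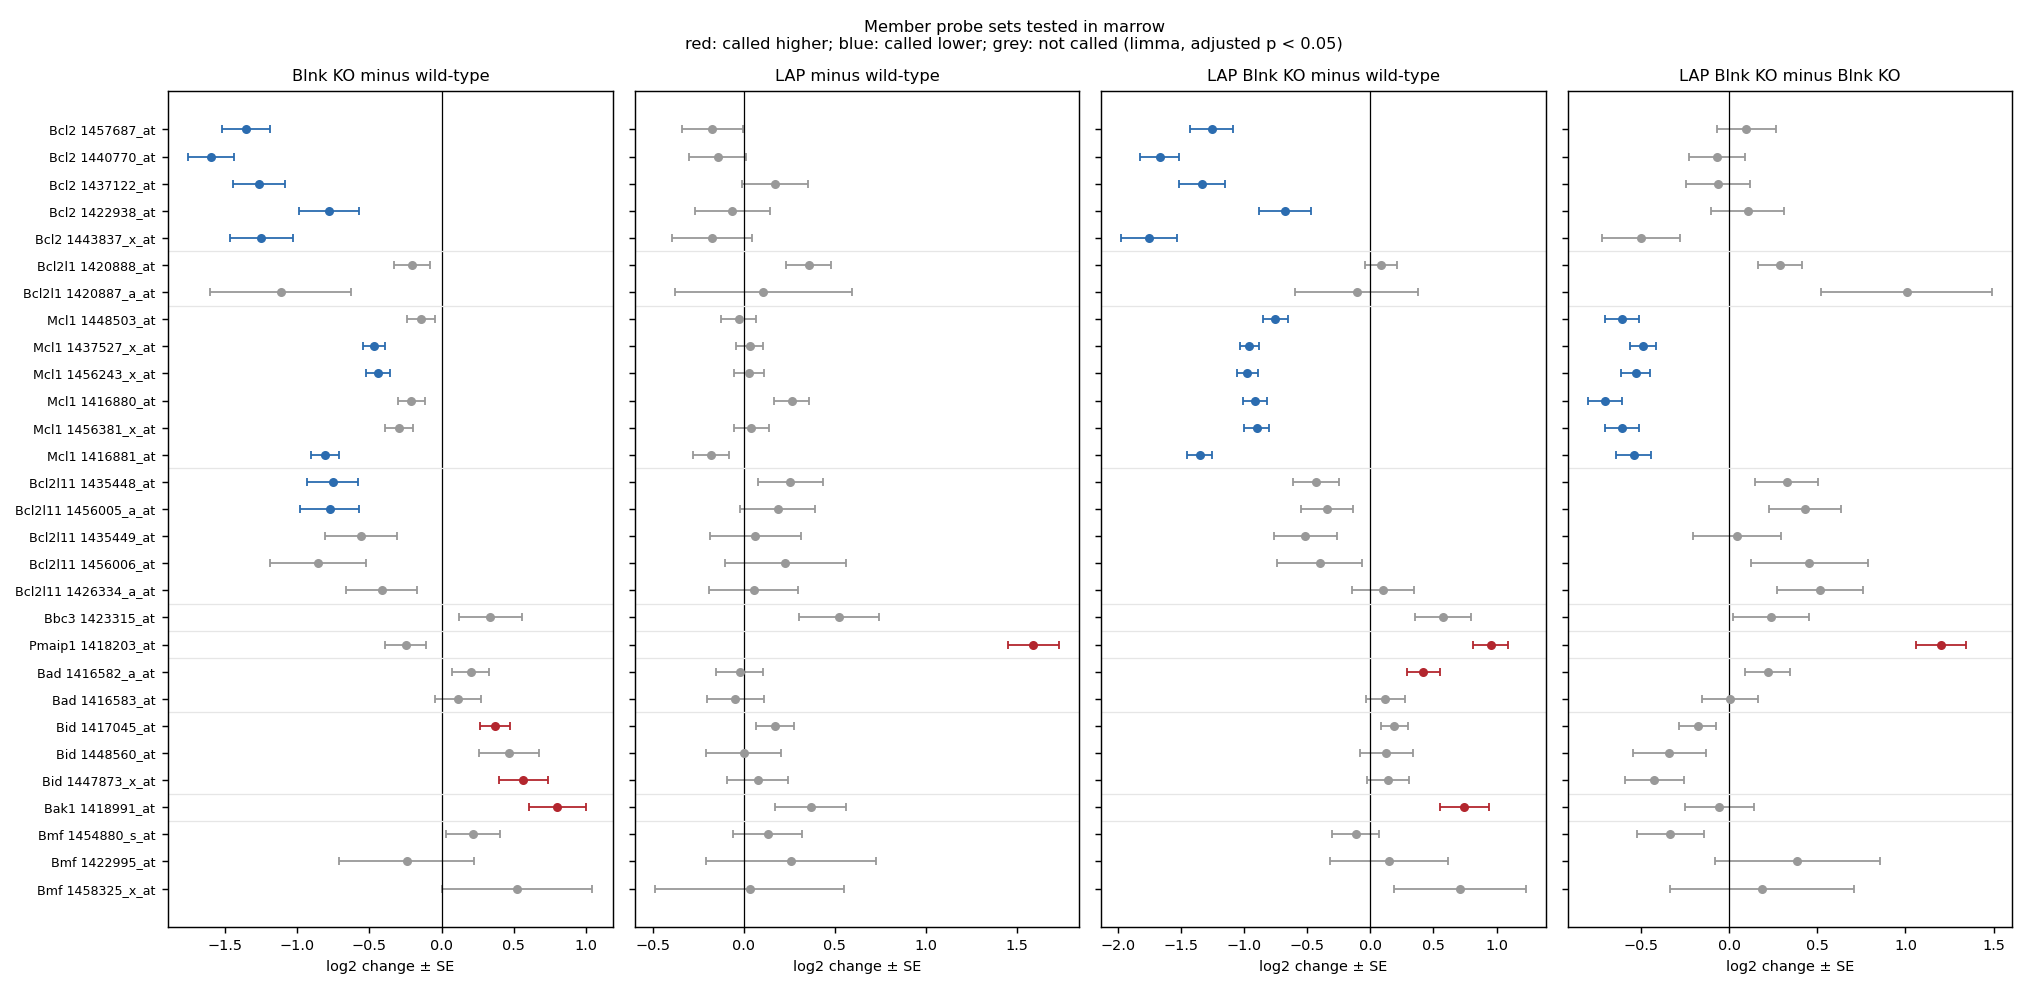
Change of each of the 29 member probe sets tested in marrow, as log2 change ± SE (x axis), in 4 comparisons of 3 arrays against 3; red points were called higher, blue lower and grey not called by limma. The 5 Bcl2 points lie left of 0 in both comparisons of a Blnk knockout label with wild-type, the 6 Mcl1 points are blue in both comparisons of LAP knockout-labelled marrow, and Pmaip1 is the red point in LAP against wild-type.

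Within LB31, cells given BLNK had more Pmaip1 and less Bmf than cells with the empty vector, and slightly less signal from 2 Mcl1 probe sets. Of 30 member probe sets tested, 1 was called higher (5.57% of all 29478 tested) and 3 lower (5.82% of all) for BLNK against the empty vector. The split was 1 and 0 with no between-array normalization and 2 and 0 after median centring, and 5 were called without empty-vector array 1. For YF against the empty vector, limma called 0 higher (0.115% of all) and 0 lower (0.112% of all), with 3 at an unadjusted p under 0.05. Without empty-vector array 1 that comparison called 2069 probe sets over the whole array and 1 member, Mcl1 1456243_x_at (-0.18 ± 0.04, adjusted p = 0.0242). For BLNK against YF, 1 member was called higher (2.5% of all) and 5 lower (3.84% of all), against 0 and 2 with no between-array normalization and 0 and 1 after median centring. The total of 6 became 0 without YF array 1 and 0 without YF array 2, and 1 or 2 when any other array of either group was left out.

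LB31 with the empty vector differed from non-neoplastic marrow in most members, as it did in most genes: a cultured line and sorted marrow differ in much besides the leukaemia. Against knockout-labelled marrow, 13 of 31 member probe sets were called higher (29.3% of all 33764 tested) and 9 lower (27.6% of all), or 6 and 10 with no between-array normalization. The 13 include Bak1 1425716_s_at and Bcl2l1 1426191_a_at, which did not pass the filter within marrow and entered the test through the LB31 arrays, so that they had to differ. Over the 29 other probe sets 11 were higher and 9 lower. Against LAP knockout-labelled marrow 11 were called higher (28.7% of all) and 7 lower (27.1% of all), or 4 and 10 with no between-array normalization, and 9 and 7 over the same 29. Without empty-vector array 1 the totals of 22 and 18 became 25 and 20. The median size of a member's change was 1.02 against 0.68 over all probe sets in the first, and 0.64 against 0.65 in the second. Of the immature and mature B genes, 3 of 14 were under the filter level on the empty-vector arrays, and of the 10 neutrophil genes 4. All 14 immature and mature B genes, all 10 neutrophil genes (median -7.11) and all 8 megakaryocyte genes (median -3.89) were lower in the line than in knockout-labelled marrow, and their part in the members' changes was not tested. Cebpb 1427844_a_at also differed, at 10.22 ± 0.10 in empty-vector LB31 against 5.02 ± 0.35 in knockout-labelled marrow. In LAP knockout-labelled marrow that probe set read 9.9 ± 0.08. Its part in the members' changes was not tested either.

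**Figure D2:**
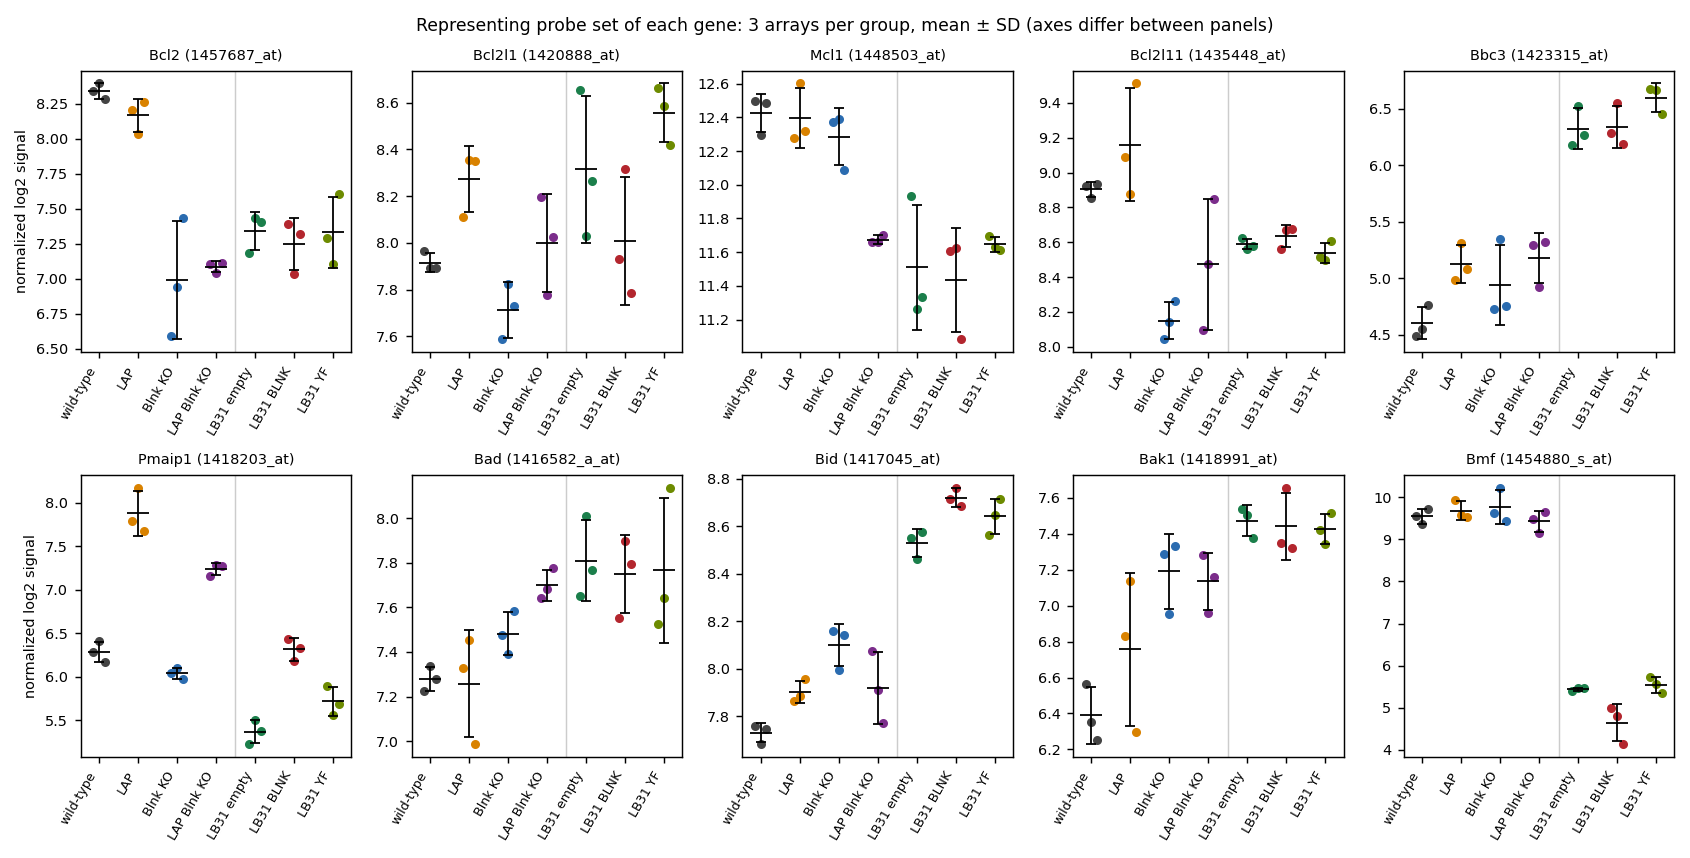
Normalized log2 signal (y axis, its range differing between panels) of the probe set with the highest mean for each of the 10 genes, on every array of the 7 groups (points), with mean ± SD of 3 arrays. Bcl2 sits highest in wild-type and LAP transgenic marrow, Pmaip1 in LAP transgenic marrow, and Bmf lies above 9 on every marrow array and under 6 on every LB31 array.

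Among the members, Bcl2 (chr1:106538176-106714290) was the survival gene with the largest marrow difference. Its brightest probe set, 1457687_at, read 8.34, 8.40 and 8.29 on the wild-type arrays and 8.21, 8.03 and 8.26 on the LAP transgenic arrays. It read 6.59, 6.94 and 7.43 on the knockout-labelled arrays and 7.11, 7.04 and 7.11 on the LAP knockout-labelled arrays. Every array with a Blnk knockout label lay below every array without one.

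The fall of Bcl2 in knockout-labelled against wild-type marrow was -1.35 ± 0.17 (2.55-fold lower, adjusted p = 0.000117), and this call held in all 16 alternative settings. The other 4 probe sets of Bcl2 also fell, 1440770_at by 1.60 ± 0.16 (adjusted p = 1.61e-05), 1437122_at by 1.26 ± 0.18 (adjusted p = 0.000406), 1443837_x_at by 1.25 ± 0.22 (adjusted p = 0.00202) and 1422938_at by 0.78 ± 0.21 (adjusted p = 0.0236). Only the last of these calls was lost in any alternative: without any 1 of the wild-type arrays, without knockout-labelled array 2, with no filter and with no between-array normalization, where its adjusted p reached 0.174.

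LAP moved 0 of the 5 Bcl2 probe sets past the test (limma). The brightest probe set differed by -0.17 ± 0.17 (adjusted p = 0.622) in LAP transgenic against wild-type marrow and by 0.10 ± 0.17 (adjusted p = 0.836) in LAP knockout-labelled against knockout-labelled marrow. Between LAP knockout-labelled and LAP transgenic marrow, 4 of the 5 Bcl2 probe sets fell, the brightest by 1.08 ± 0.17 (adjusted p = 0.000355), or by 1.04 ± 0.19 (adjusted p = 0.00137) without LAP transgenic array 3. The exception was 1422938_at, at -0.61 ± 0.21 (adjusted p = 0.0504). Against wild-type marrow all 5 fell with both changes, by 0.68 to 1.75, and the smallest of these, again 1422938_at (adjusted p = 0.028), was lost without any 1 wild-type array or without LAP knockout-labelled array 2 or 3. That call was also lost with no filter and with no between-array normalization (adjusted p up to 0.327).

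The Bcl2 probe sets did not move together in LB31. The brightest read 7.19, 7.43 and 7.41 on the empty-vector arrays, 0.35 ± 0.16 above knockout-labelled marrow (adjusted p = 0.067), or 0.43 ± 0.18 (adjusted p = 0.0493) without empty-vector array 1. By contrast, with all arrays, 1422938_at rose by 1.36 ± 0.22 (adjusted p = 1.11e-05), while 1440770_at fell by 1.16 ± 0.19 (adjusted p = 2.02e-05, or by 1.33 without empty-vector array 1) and 1443837_x_at by 1.02 ± 0.27 (adjusted p = 0.00233). The direction of Bcl2 in LB31 against marrow thus depended on the probe set. Probe sets of a gene can target different transcript ends and isoforms, and which sequence each of these targets was not used here. BLNK or YF in LB31 moved 0 of the 5 Bcl2 probe sets past the test (limma).

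Mcl1 (chr3:95656944-95663179) was the other survival gene among the members that fell in marrow. In each of its probe sets the LAP knockout-labelled mean was the lowest of the marrow groups and the knockout-labelled mean the next. The brightest, 1448503_at, read 12.50, 12.30 and 12.48 in wild-type, 12.28, 12.60 and 12.32 in LAP transgenic, and 12.37, 12.39 and 12.09 in knockout-labelled marrow. In LAP knockout-labelled marrow it read 11.66, 11.66 and 11.70. Those 3 arrays lay below all 9 of the other marrow arrays.

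For that probe set the change was -0.75 ± 0.10 (adjusted p = 6.21e-05) against wild-type, -0.61 ± 0.10 (adjusted p = 0.00166) against knockout-labelled and -0.72 ± 0.10 (adjusted p = 0.000107) against LAP transgenic marrow, the last being -0.76 ± 0.11 (adjusted p = 0.000186) without LAP transgenic array 3. All 6 Mcl1 probe sets fell in LAP knockout-labelled marrow in each of these comparisons, by 0.75 to 1.35 against wild-type and by 0.49 to 0.71 against knockout-labelled marrow. Each of these calls held in every alternative run. In LAP transgenic against wild-type marrow 0 of the 6 were called, and the changes ran from -0.18 to 0.26. In knockout-labelled against wild-type marrow 3 were called, 1416881_at at -0.81 ± 0.10 (adjusted p = 0.000108), 1437527_x_at at -0.47 ± 0.08 (adjusted p = 0.000955) and 1456243_x_at at -0.44 ± 0.08 (adjusted p = 0.00289). The latter 2 calls were lost with no between-array normalization (adjusted p = 0.0737 and 0.164).

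The LAP change of Mcl1 differed between the Blnk backgrounds by the test of the interaction. It was called for 4 probe sets, with 1416880_at at -0.97 ± 0.14 (adjusted p = 0.00241), and was -0.58 ± 0.14 for 1448503_at (adjusted p = 0.0608) and -0.36 ± 0.14 for 1416881_at (adjusted p = 0.285). The call for 1416880_at held in all 21 alternatives. For the other 3 it held in 8 of 21, being lost when any 1 of 9 arrays was left out: wild-type 1, 2 or 3, LAP transgenic 1 or 2, knockout-labelled 1 or 2, or LAP knockout-labelled 2 or 3. It was also lost for these 3 under other scalings, with no filter and with no trend. Without LAP transgenic array 3 the interaction was called for 5 Mcl1 probe sets, 1448503_at included (adjusted p = 0.0487), and without knockout-labelled array 3 for 5 members as well. The plot of the 6 Mcl1 probe sets shows this as points that stay near 0 with LAP alone and, among the marrow groups, lie lowest with both changes.

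**Figure D3:**
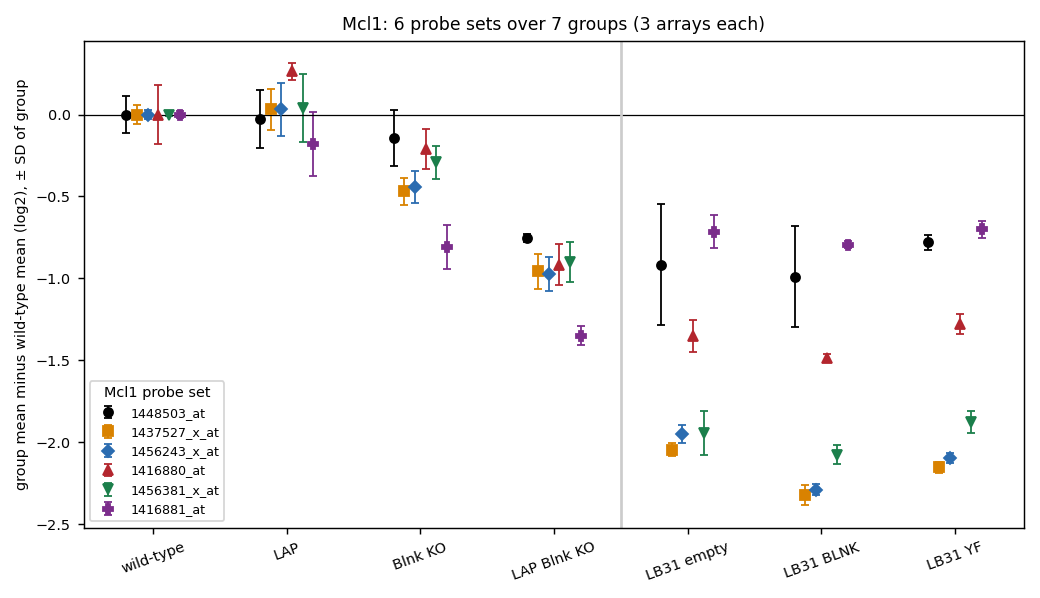
Mean of each group minus the wild-type mean for the 6 Mcl1 probe sets (y axis, log2; bars are the SD of the group's 3 arrays) over 4 marrow and 3 LB31 groups. In LAP knockout-labelled marrow all 6 lie between -0.75 and -1.35, and in LB31 they spread apart, with 1416881_at at the top.

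In LB31 Mcl1 was lower than in knockout-labelled marrow for 5 of 6 probe sets, from -0.78 ± 0.15 for 1448503_at (adjusted p = 8.54e-05) to -1.65 ± 0.09 for 1456381_x_at (adjusted p = 6.55e-13). The first of these was -0.99 ± 0.13 (adjusted p = 1.17e-06) without empty-vector array 1, and its call was lost after median centring (-0.24, adjusted p = 0.255). The exception, 1416881_at, differed by 0.09 ± 0.08 (adjusted p = 0.354). Against LAP knockout-labelled marrow 1416881_at rose by 0.64 ± 0.08 (adjusted p = 8.76e-07, and 0.129 with no between-array normalization) while 4 others fell, and 1448503_at differed by -0.17 ± 0.15 (adjusted p = 0.351), or by -0.38 ± 0.13 (adjusted p = 0.0165) without empty-vector array 1. Of those 4, 1416880_at (-0.434) lost its call after median centring (-0.053, adjusted p = 0.727). So the probe sets of Mcl1, which all fell in LAP knockout-labelled marrow against the other marrow groups, split in the line.

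BLNK in LB31 lowered 2 Mcl1 probe sets whose names end in x, a mark for probes that can also bind other transcripts. The set 1456243_x_at read 10.20, 10.31 and 10.26 with the empty vector, 10.12, 10.14 and 10.08 with YF, and 9.88, 9.93 and 9.95 with BLNK, and the 3 groups did not overlap. Its change was -0.34 ± 0.04 (adjusted p = 0.000248) against the empty vector and -0.19 ± 0.04 (adjusted p = 0.0202) against YF, the latter lost without BLNK array 1 or 2 or YF array 1 or 2. The call against YF held in 7 of 15 alternatives. It was also lost with no between-array normalization, after median centring, in 1 fit of all arrays and with no trend (adjusted p up to 0.295). For 1437527_x_at the change against the empty vector was -0.28 ± 0.04 (adjusted p = 0.00117). Both calls against the empty vector were lost with no between-array normalization (adjusted p = 0.807 and 0.921) and after median centring. The brightest set, 1448503_at, differed by -0.07 ± 0.16 (adjusted p = 0.841).

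Bcl2l1 (chr2:152758732-152833803), the BCL-XL gene, did not pass the test in any marrow comparison. Its brightest probe set, 1420888_at, read 7.96, 7.89 and 7.89 in wild-type and 7.59, 7.82 and 7.73 in knockout-labelled marrow, a difference of -0.20 ± 0.12 (adjusted p = 0.342). It read 8.11, 8.36 and 8.35 in LAP transgenic marrow, 0.36 ± 0.12 above wild-type (adjusted p = 0.145), and 8.20, 7.78 and 8.03 with both changes. The groups of wild-type and LAP transgenic arrays did not overlap, although the change was not called.

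In LB31 Bcl2l1 was higher than in knockout-labelled marrow for both probe sets that passed the filter within marrow. Set 1420888_at rose by 0.60 ± 0.15 (adjusted p = 0.00126), or by 0.43 ± 0.15 (adjusted p = 0.0155) without empty-vector array 1, and its call was lost with no between-array normalization (0.10, adjusted p = 0.729). The dimmer 1420887_a_at, which read 2.70, 2.76 and 4.39 in knockout-labelled marrow, around and under the filter level of 4.06, rose by 2.59 ± 0.40 (adjusted p = 6.83e-06) and by 2.56 (adjusted p = 6.3e-05) without empty-vector array 1. Against LAP knockout-labelled marrow 1420888_at was not called, at 8.315 ± 0.315 with the empty vector against 8 ± 0.21. Its LAP transgenic mean was 8.273 ± 0.14. There 1420887_a_at rose by 1.587 (adjusted p = 0.00161), a call lost with no between-array normalization (adjusted p = 0.0784). Set 1426191_a_at read 5.94, 5.54 and 5.47 with the empty vector and 2.44, 3.26 and 3.34 in knockout-labelled marrow. It did not pass the filter within marrow and entered the test through the LB31 arrays, so these values are a description only. The 4th, 1426050_at, passed the filter on 1 array of 21. In BLNK against YF cells 1420888_at was lower (-0.55 ± 0.15, adjusted p = 0.0493), a call that held in 6 of 16 alternatives and was lost without BLNK array 1 or 3 or any 1 YF array (adjusted p up to 0.217).

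Pmaip1 (chr18:66458604-66465558), which encodes NOXA, followed the LAP transgene in marrow. Its probe set read 6.28, 6.41 and 6.17 in wild-type and 6.04, 6.10 and 5.97 in knockout-labelled marrow. In LAP transgenic marrow it read 7.79, 8.18 and 7.67, and in LAP knockout-labelled marrow 7.16, 7.29 and 7.27. All 6 arrays with the transgene lay above all 6 without it.

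LAP raised Pmaip1 by 1.59 ± 0.14 in marrow without the knockout label (3.01-fold, adjusted p = 0.000109) and by 1.201 ± 0.14 in marrow with it (2.3-fold, adjusted p = 0.000132). The difference between these changes was -0.39 ± 0.20 (adjusted p = 0.426). Without LAP transgenic array 3 the first was 1.70 ± 0.15 (adjusted p = 0.00012). LAP knockout-labelled marrow stood 0.95 ± 0.14 above wild-type (adjusted p = 0.000201), and 0.64 ± 0.14 below LAP transgenic marrow (adjusted p = 0.00488), a call lost with no between-array normalization (-0.22, adjusted p = 0.282) and kept without LAP transgenic array 3 (-0.74, adjusted p = 0.00255). The other 3 calls held in every alternative.

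Pmaip1 was lowest in empty-vector LB31. There the Cebpb probe set 1427844_a_at stood at 10.22 ± 0.10, against 10.05 ± 0.15 in LAP transgenic marrow, so Pmaip1 did not follow that probe set into the line. Pmaip1 read 5.23, 5.50 and 5.38, which is 0.67 ± 0.14 below knockout-labelled marrow (adjusted p = 0.000355) and 1.87 ± 0.14 below LAP knockout-labelled marrow (3.66-fold, adjusted p = 2.47e-10). Without empty-vector array 1 these were -0.60 (adjusted p = 0.00278) and -1.80. With BLNK it read 6.44, 6.18 and 6.33, and with YF 5.90, 5.57 and 5.69, and the 3 vector groups did not overlap. BLNK raised it by 0.95 ± 0.16 over the empty vector (1.93-fold, adjusted p = 0.00154), or by 0.88 ± 0.17 (adjusted p = 0.00305) without empty-vector array 1, in all 16 alternatives. YF differed from the empty vector by 0.35 ± 0.16 (adjusted p = 0.34), and BLNK from YF by 0.60 ± 0.16 (adjusted p = 0.0389). The last call held in 6 of 16 alternatives and was lost without any 1 array of BLNK or of YF (adjusted p up to 0.372).

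**Figure D4:**
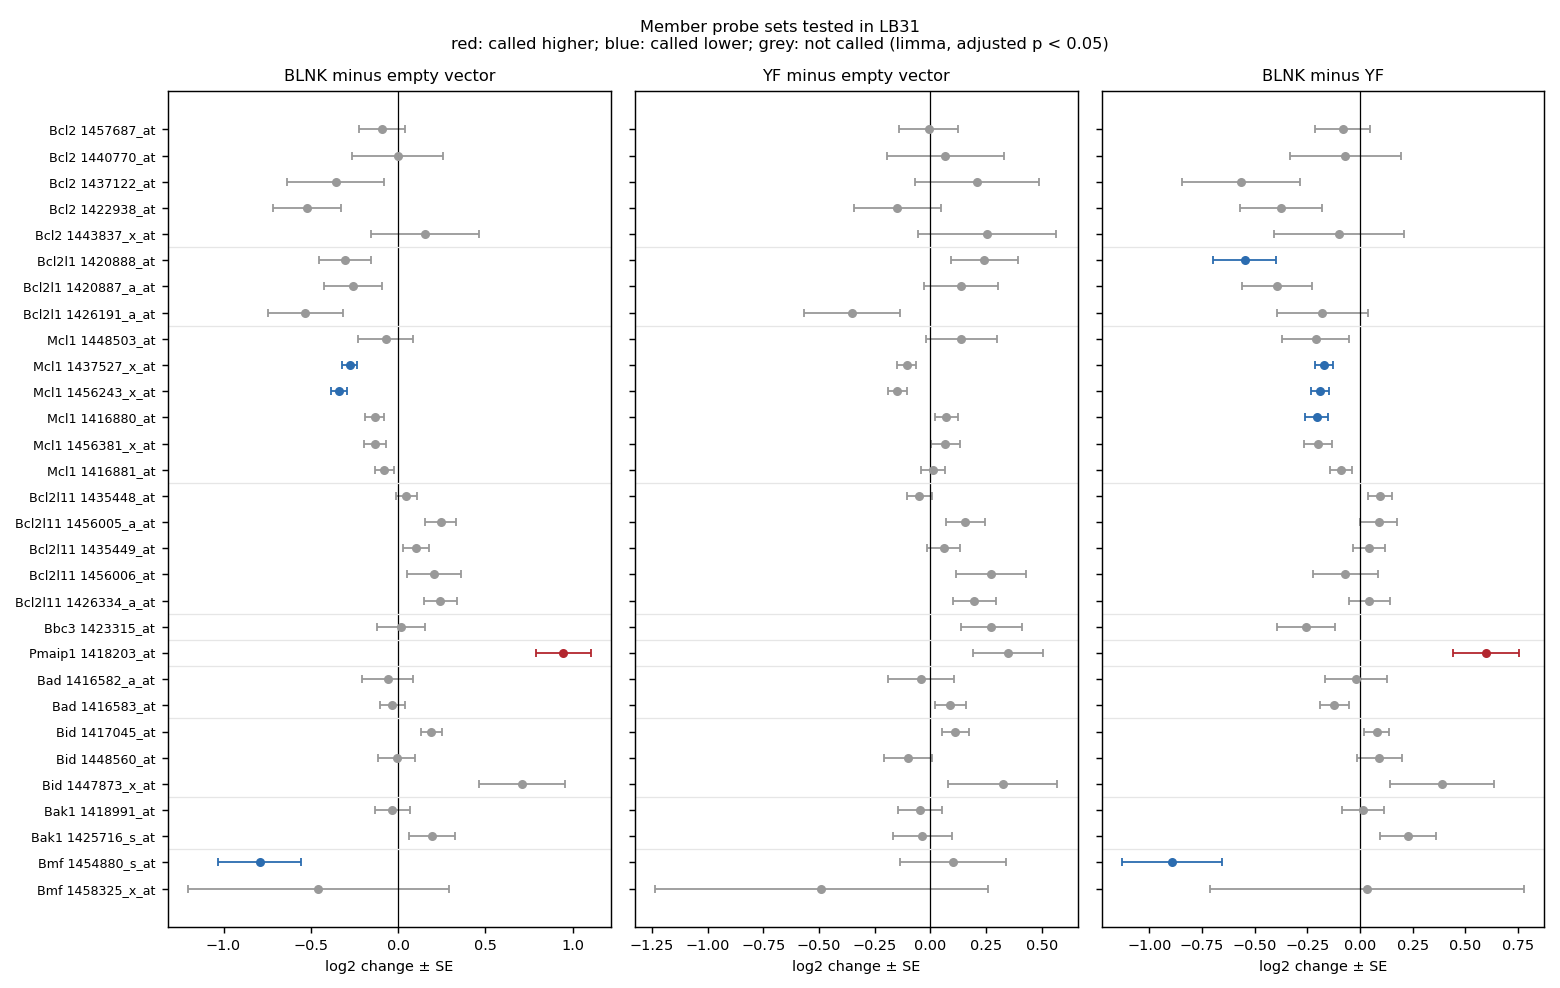
Change of each of the 30 member probe sets tested in LB31, as log2 change ± SE (x axis), for BLNK and YF against the empty vector and BLNK against YF, 3 arrays per group; red points were called higher, blue lower and grey not called by limma. Pmaip1 is the red point for BLNK, and no point is coloured for YF against the empty vector.

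Bcl2l11 (chr2:128126038-128162547), the BIM gene, was lower with the knockout label, in the same direction as Bcl2. Its brightest probe set, 1435448_at, read 8.92, 8.85 and 8.93 in wild-type and 8.05, 8.14 and 8.26 in knockout-labelled marrow, with no overlap. The change was -0.76 ± 0.18 (1.69-fold lower, adjusted p = 0.0126), lost without knockout-labelled array 1 and with no between-array normalization (adjusted p up to 0.0991). A second probe set, 1456005_a_at, fell by 0.77 ± 0.20 (adjusted p = 0.0226). That call held in 8 of 15 alternatives and was lost without any 1 wild-type array or knockout-labelled array 1 or 2. The other 3 had changes of -0.42 to -0.86 and were not called.

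Replicates of the brightest Bcl2l11 probe set, 1435448_at, lay further apart in both groups with the transgene than in the groups without it. This spread was not tested, and not every Bcl2l11 probe set showed it. For 1426334_a_at the SD was 0.03 with LAP alone, against 0.344 for the wild-type arrays. LAP transgenic marrow read 9.09, 8.88 and 9.51, the last on the array high in neutrophil genes, and LAP knockout-labelled marrow read 8.10, 8.48 and 8.85. LAP knockout-labelled marrow lay 0.69 ± 0.18 below LAP transgenic marrow (adjusted p = 0.0139). Without LAP transgenic array 3 this was -0.51 ± 0.17 (adjusted p = 0.0504). The call was also lost without LAP knockout-labelled array 1 and with no between-array normalization (adjusted p up to 0.328). Against wild-type marrow it differed by -0.43 ± 0.18 (adjusted p = 0.0992).

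In empty-vector LB31 the Bcl2l11 probe sets differed in how far they stood above knockout-labelled marrow, the marrow group with their lowest means. The brightest, 1435448_at, at 8.589 ± 0.03, lay below its wild-type mean of 8.903 ± 0.045. Against LAP knockout-labelled marrow only 1435449_at (1.085) and 1426334_a_at (2.312) were called. The dim set 1426334_a_at read 6.90, 6.95 and 6.67 with the empty vector against 4.11, 3.88 and 4.04 in knockout-labelled marrow, a rise of 2.83 ± 0.18 (adjusted p = 1.48e-11), or of 2.80 without empty-vector array 1. The knockout-labelled values lie around the filter level of 4.06, so the size of this rise depends on the pseudocount and the scaling. The brightest, 1435448_at, was higher by 0.44 ± 0.14 (adjusted p = 0.0121), but differed by -0.04 (adjusted p = 0.887) with no between-array normalization. Sets 1435449_at and 1456006_at rose by 1.13 ± 0.20 and 1.05 ± 0.29, calls lost with no between-array normalization (adjusted p = 0.0571 and 0.453), and 1456005_a_at differed by 0.30 ± 0.17 (adjusted p = 0.145). The vectors moved 0 of the 5 past the test (limma), the brightest reading 8.64 ± 0.07 with BLNK and 8.54 ± 0.06 with YF.

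Bmf (chr2:118528757-118549686), a BH3-only gene whose protein is held on the cytoskeleton, set marrow and LB31 apart by the largest fold of any member. Set 1454880_s_at read 9.63, 10.23 and 9.44 in knockout-labelled marrow and 9.49, 9.16 and 9.65 in LAP knockout-labelled marrow. In empty-vector LB31 it read 5.41, 5.46 and 5.46. The change was -4.32 ± 0.20 against knockout-labelled marrow (adjusted p = 6.86e-14) and -3.99 ± 0.20 (15.8-fold lower, adjusted p = 3.11e-13) against LAP knockout-labelled marrow, and both calls held in all 14 alternatives, at -4.30 and -3.97 without empty-vector array 1. In deposited signal the knockout-labelled arrays read 800.3, 1234 and 854.6 and the empty-vector arrays 35.02, 26.78 and 27.37.

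Among the marrow groups 1454880_s_at did not pass the test: its means ran from 9.43 ± 0.25 to 9.77 ± 0.41. In LB31 it read 5.01, 4.80 and 4.15 with BLNK and 5.73, 5.56 and 5.35 with YF. BLNK lowered it by 0.79 ± 0.24 against the empty vector (adjusted p = 0.0495), a call that held in 5 of 16 alternatives. It was lost without any 1 empty-vector array, without BLNK array 2 or without BLNK array 3, being -0.81 ± 0.28 (adjusted p = 0.0641) without empty-vector array 1. Against YF the change was -0.89 ± 0.24 (adjusted p = 0.0429), and that call held in 9 of 16 and was lost without BLNK array 2 or 3 or any 1 YF array. The 2 other Bmf probe sets were dim, above the filter on 5 and 7 of 21 arrays, and were not called in any comparison.

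**Figure D5:**
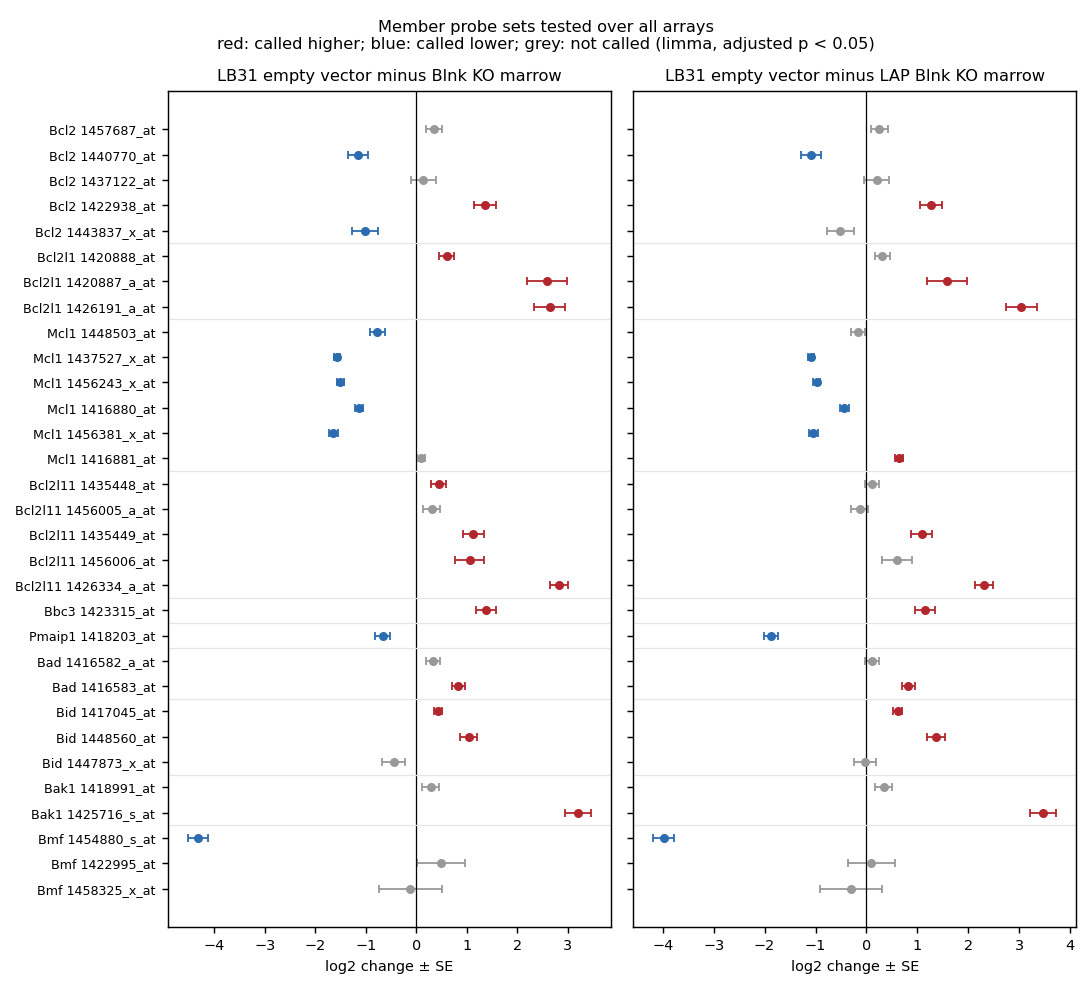
Change of each of the 31 member probe sets tested over all arrays, as log2 change ± SE (x axis), for empty-vector LB31 against the 2 knockout-labelled marrow groups, 3 arrays per group; red points were called higher, blue lower and grey not called by limma. Bmf 1454880_s_at lies at -4.32 and -3.99, and the Bcl2 points fall on both sides of 0. The small rises of Bcl2l11 1435448_at and Bid 1417045_at over knockout-labelled marrow turned to -0.04 and -0.05 with no between-array normalization.

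Bbc3 (chr7:16308398-16318334), which encodes PUMA, was higher in LB31 than in the knockout-labelled marrow groups. Its probe set read 6.17, 6.52 and 6.27 with the empty vector, against 4.73, 5.35 and 4.75 in knockout-labelled and 5.30, 4.92 and 5.32 in LAP knockout-labelled marrow. The rise was 1.38 ± 0.19 (2.6-fold, adjusted p = 2.26e-06) and 1.14 ± 0.19 (adjusted p = 2.82e-05), the second lost with no between-array normalization (0.35, adjusted p = 0.222). Without empty-vector array 1 these were 1.46 (adjusted p = 8.27e-06) and 1.22. In marrow it was not called, with the highest mean difference from wild-type in LAP knockout-labelled marrow (0.58 ± 0.22, adjusted p = 0.0705).

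Bid (chr6:120893119-120917062), whose protein links death receptors to mitochondria, had probe sets that disagreed in LB31. Set 1417045_at was slightly higher in knockout-labelled than in wild-type marrow and higher again in LB31. It read 7.76, 7.68 and 7.75 in wild-type, 8.16, 7.995 and 8.14 in knockout-labelled marrow and 8.55, 8.46 and 8.58 in empty-vector LB31, with no overlap. The first step was 0.37 ± 0.11 (adjusted p = 0.0352), held in 10 of 16 alternatives and lost without any 1 wild-type array, knockout-labelled array 1 or 3, or after median centring. The second was 0.43 ± 0.08 (adjusted p = 0.000126), but -0.05 (adjusted p = 0.805) with no between-array normalization. With the transgene the set read 7.918 ± 0.153 in LAP knockout-labelled and 7.901 ± 0.048 in LAP transgenic marrow. In LAP knockout-labelled marrow no Bid probe set was called against wild-type or LAP transgenic marrow. Set 1447873_x_at rose by 0.56 ± 0.17 (adjusted p = 0.0426) in knockout-labelled against wild-type marrow, in 8 of 15 alternatives. That call was lost without wild-type array 1 or 3 or knockout-labelled array 1 or 3. With the transgene this set read 5.428 ± 0.122 in LAP knockout-labelled and 5.363 ± 0.09 in LAP transgenic marrow. In LB31 against knockout-labelled marrow it differed by -0.45 ± 0.22 (adjusted p = 0.0887), and it was called lower without empty-vector array 1 (-0.73 ± 0.21, adjusted p = 0.00622) and with no between-array normalization (-1.18, adjusted p = 0.000304). Set 1448560_at rose there by 1.03 ± 0.18 (adjusted p = 3.04e-05), a call lost with no between-array normalization (adjusted p = 0.171). Set 1447873_x_at, without empty-vector array 1, rose with BLNK in LB31 by 0.99 ± 0.22 (adjusted p = 0.00777), against 0.71 (adjusted p = 0.0861) with it.

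Bad (chr19:6941861-6951905), whose protein is switched off by survival signalling through AKT, moved little in marrow. Set 1416582_a_at read 7.23, 7.34 and 7.28 in wild-type and 7.64, 7.68 and 7.78 in LAP knockout-labelled marrow, a rise of 0.42 ± 0.13 (adjusted p = 0.0273). It held in 10 of 16 alternatives and was lost after median centring, without any 1 wild-type array and without LAP knockout-labelled array 2 or 3. Against LAP transgenic marrow the rise was 0.44 ± 0.13 (adjusted p = 0.0241), and 0.31 ± 0.12 (adjusted p = 0.0806) without LAP transgenic array 3, with the call also lost without LAP knockout-labelled array 2 or 3. The second set, 1416583_at, was not called in marrow and rose by 0.83 ± 0.13 (adjusted p = 8.02e-06, and 0.192 with no between-array normalization) in LB31 against knockout-labelled marrow. There 1416582_a_at was called without empty-vector array 1 (0.41, adjusted p = 0.0391) and not with it (0.33, adjusted p = 0.0595).

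Bak1 (chr17:27019812-27028627), the effector, was higher in both knockout-labelled groups than in wild-type marrow. Set 1418991_at read 6.56, 6.35 and 6.25 in wild-type, 7.29, 6.95 and 7.33 in knockout-labelled and 7.28, 6.96 and 7.16 in LAP knockout-labelled marrow. LAP transgenic arrays ran from 6.30 to 7.14 and overlapped both. The rises were 0.80 ± 0.19 (1.74-fold, adjusted p = 0.0146) and 0.75 ± 0.19 (1.68-fold, adjusted p = 0.0119). The first was lost without wild-type array 2 or 3 or knockout-labelled array 1 or 3 (adjusted p up to 0.0598), and the second held in all 16 alternatives.

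In LB31 the Bak1 probe sets gave different pictures. Set 1418991_at read 7.47 ± 0.09 with the empty vector and differed from knockout-labelled marrow by 0.28 ± 0.17 (adjusted p = 0.155). Set 1425716_s_at read 5.98 ± 0.11 there against 2.78 ± 0.30. Its marrow values lay under the filter level of 4.06 and it entered the test through the LB31 arrays, so this is a description, and the difference ran from 1.99 to 4.002 on the log2 scale over the 13 alternatives.

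Other genes of the death pathway were read from lists, each gene by its brightest probe set. Read the same way, 7.68% of the 13342 genes tested in marrow rose and 7.77% fell with the knockout label, 1.74% rose and 1.52% fell with LAP alone, and 2.83% rose and 3.99% fell in LAP knockout-labelled against knockout-labelled marrow. In LB31 6.44% of 13034 genes rose and 7.79% fell with BLNK. Lists this small are given by their counts beside these shares, and nothing is read from a count about the list as a whole. Of 8 other BCL2 family genes tested in marrow, 3 rose and 0 fell with the knockout label. These were Bcl2l2, a survival gene encoding BCL-W (1.498 ± 0.157, adjusted p = 2.75e-05), Bok, a BAK-like gene (1.49 ± 0.15, adjusted p = 2.28e-05), and Bcl2l12 (0.45 ± 0.11, adjusted p = 0.0116). The median of the list was 0.17 and that of all probe sets 0.00. With LAP alone 1 rose, Bnip3 (0.61 ± 0.13, adjusted p = 0.0237), and 0 fell.

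Among 16 genes of the apoptosome, the caspases and their inhibitors, 2 rose and 2 fell with the knockout label. The falls were Casp9, the initiator caspase of the mitochondrial pathway (-0.73 ± 0.13, adjusted p = 0.00164), and Birc3, an inhibitor of apoptosis and target of NF-κB (-0.70 ± 0.12, adjusted p = 0.00163). In LAP knockout-labelled marrow both were lower than in knockout-labelled marrow, Birc3 by 0.98 ± 0.12 (adjusted p = 0.000202) and Casp9 by 0.49 ± 0.13 (adjusted p = 0.0369), and Birc2 fell by 0.46 ± 0.09 (adjusted p = 0.00782). Among 11 death receptor pathway genes the only change with the knockout label was a rise of Tnfsf10, the ligand TRAIL (2.40 ± 0.19, 5.29-fold, adjusted p = 2.29e-06).

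Of 15 genes of the p53 pathway, 5 rose, where 2.83% of all genes did, and 1 fell in LAP knockout-labelled against knockout-labelled marrow, with a median of 0.27 against 0.01 over all probe sets. The rises included Cdkn1a, which encodes the cell cycle inhibitor p21 (1.60 ± 0.21, adjusted p = 0.000386), Zmat3 (1.28 ± 0.21, adjusted p = 0.00181) and Phlda3, an inhibitor of AKT (1.05 ± 0.17, adjusted p = 0.00227). In LAP transgenic against wild-type marrow 0 of the 15 rose and 2 fell, Sesn1 (-0.81 ± 0.13, adjusted p = 0.00635) and Trp53inp1 (-0.43 ± 0.07, adjusted p = 0.00565). The interaction called 0 of the 15 in either direction. LAP knockout-labelled marrow had 5 higher and 5 lower than wild-type marrow, where 15.7% and 13.9% of all genes were. Against LAP transgenic marrow it had 6 higher and 4 lower, where 13.6% and 11.8% of all genes were. In LB31 BLNK lowered Cdkn1a by 1.11 ± 0.09 (adjusted p = 2.52e-06) and Trp53inp1 by 0.81 ± 0.07 (adjusted p = 3.5e-06).

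Of 16 survival regulators of the interleukin 7, STAT5, PIM and FOXO pathway, 3 rose and 3 fell with the knockout label. Socs2 (2.30 ± 0.21, adjusted p = 9.82e-06) and Cish (0.82 ± 0.21, adjusted p = 0.0182), both feedback inhibitors induced by STAT5, rose, and the survival kinase gene Pim2 fell by 0.80 ± 0.15 (adjusted p = 0.00308). In LB31 BLNK lowered 5 of the 16 and raised 0, where 7.79% and 6.44% of all genes were, among them Pim1 (-0.96 ± 0.07, adjusted p = 9.62e-07), Socs3 (-0.95 ± 0.10, adjusted p = 2.92e-05) and Foxo1 (-0.63 ± 0.07, adjusted p = 9.51e-05). The 3360 probe sets called in that comparison became 736 with no between-array normalization. YF moved 0 of the 16 past the test (limma). Of 12 genes for turnover and partners of the MCL1 and BIM proteins, 1 rose and 1 fell with the knockout label, the dynein light chain gene Dynll2 (0.78 ± 0.12, adjusted p = 0.000536) and the ubiquitin ligase gene Btrc (-0.80 ± 0.18, adjusted p = 0.00994), and 0 moved in LAP knockout-labelled against knockout-labelled marrow.

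The order of the group means was set beside the overlap of neighbouring groups' arrays, which is no test. For Bcl2 1457687_at the order from high to low was wild-type, LAP transgenic, empty vector, YF, BLNK, LAP knockout-labelled and knockout-labelled. The arrays of neighbouring groups did not overlap at the first and second steps and overlapped at all later ones, although wild-type and LAP transgenic marrow were not called apart by limma (adjusted p = 0.622). For Pmaip1 it was LAP transgenic, LAP knockout-labelled, BLNK, wild-type, knockout-labelled, YF and empty vector, where only BLNK and wild-type overlapped, and YF and the empty vector were not called apart (adjusted p = 0.34). Over the 7 group means, the genes most like the brightest Bcl2 probe set among 14654 were Dram2 (r = 0.9895), Csnk1e (r = 0.9891) and Add3 (r = 0.9884). For Mcl1 they were Eif4a2 (r = 0.9944), Tmem131l (r = 0.9921) and Cacfd1 (r = 0.9917), for Bcl2l11 Fam220a (r = 0.9853), and for Bcl2l1 Atp5l (r = 0.9712). With 7 points that share 2 cell sources, these r values describe likeness of profile only.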

How the data were processed

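Per the submitters' processing notes, the authors deposited MAS5 probe set signals, read here as intensity on a linear scale; the version and any target scaling are not given in the sources used here. A pseudocount of 4 was added, log2 taken, and all 21 arrays quantile normalized. Probe sets were tested where at least 3 arrays of the fit gave a signal above the 40th percentile of that array, and 64 control probe sets were left out. The limma package (3.58.1, in R 4.3.3; lmFit, and eBayes with an intensity trend) was run separately on 12 marrow arrays, 9 LB31 arrays and all 21 arrays (LB31 against marrow), with two-sided Benjamini-Hochberg adjusted p-values over every probe set of the fit, called under 0.05. The steps were tested on simulated data. Fold changes understate changes of dim probe sets, and normalization removes any overall shift in message. The number of arrays limits precision, as does a signal near the filter level, and intensity carries no read depth.

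Members and gene lists were chosen with earlier results of these data known. Named genes were all members, genes with the 3 largest called changes per list and comparison, and the 3 genes closest in profile for 4 members. Same-numbered marrow arrays correlated (deviations from group means) at r from -0.0947 to 0.262 and LB31 arrays from -0.0293 to 0.0171, so numbers were not taken to pair arrays. Alternatives were other normalizations, pseudocounts of 1 and 16, no filter, no trend, 1 fit of all arrays, a replicate block, 1 probe set per gene, and each array left out.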

Additional observations from a re-analysis of the deposited data

Results flagged for a closer look

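The effect of LAP differed between the Blnk backgrounds for 4 Mcl1 probe sets by the interaction test (limma, adjusted p under 0.05). Its effect with the knockout label minus its effect without was -0.969 ± 0.136 (SE) for 1416880_at (adjusted p = 0.00241), -0.647 ± 0.137 for 1456381_x_at (adjusted p = 0.0357), -0.563 ± 0.117 for 1456243_x_at (adjusted p = 0.0312) and -0.52 ± 0.106 for 1437527_x_at (adjusted p = 0.0291). All 3 LAP knockout-labelled arrays lay below all 3 knockout-labelled arrays for each of the 4. Sets 1456381_x_at, 1456243_x_at and 1437527_x_at are of the kind whose probes can also bind other transcripts. The immature and mature B genes were also lowest in that group of the marrow. By the same interaction test 13 of these 14 genes were called lower (median -1.93), where 1.03% of all genes were. The part of these genes in the Mcl1 difference was not tested.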

How the results depend on the processing

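Of single-probe-set results under alternatives that keep all arrays, 2798 kept their direction and side of the threshold, 80 lost and 40 gained a call, and 2 reversed. With 1 array left out, 1998 kept both, 101 lost and 25 gained a call, and 0 reversed. The 2 reversals, both for LB31 with the empty vector against knockout-labelled marrow with no between-array normalization, were Bcl2l11 1435448_at (-0.038) and Bid 1417045_at (-0.052). Counts of called members moved as follows. The interaction count of 4 became 1 with no between-array normalization, 1 after median centring, 1 with no filter and 1 with no trend. The 4 calls for BLNK against the empty vector became 1 with no normalization and 2 after median centring. The 6 for BLNK against YF became 2 with no normalization, 1 after median centring, 1 with no filter, 2 in 1 fit of all arrays, 1 with no trend and 3 with the replicate block. LAP against wild-type gave 2 in 1 fit of all arrays, and YF against the empty vector 1 after median centring. Leaving out 1 array gave 8 to 11 for knockout-labelled against wild-type, 1 to 5 for the interaction, 0 to 1 for YF against the empty vector and 0 to 2 for BLNK against YF. The causes were not tested, except that leaving out an array leaves fewer samples. Over all probe sets, the 67 calls for YF against the empty vector became 1833 after median centring, 2069 without empty-vector array 1 and 1 without YF array 2, and the 3360 for BLNK against the empty vector became 736 with no normalization. The 3825 for knockout-labelled against wild-type became 6910 and the 6389 for LAP knockout-labelled against LAP transgenic marrow 11804 with no normalization. The 782 for LAP against wild-type became 245 without wild-type array 3 and 1853 in 1 fit of all arrays, the 355 of the interaction 203 with no trend and 885 in 1 fit, and the 1869 for BLNK against YF 682 in 1 fit. The 1567 for LAP knockout-labelled against knockout-labelled marrow became 810 without knockout-labelled array 2. Same-numbered arrays correlated above 0.1 in 1 of 18 marrow pairs and 0 of 9 LB31 pairs, and 6 of 12 and 4 of 9 arrays correlated best with their own number; with the replicate block no member count but that for BLNK against YF moved by more than 1.5 times. With 1 probe set per gene, every call of a brightest probe set was kept. Dim probe sets near the filter level limit what these arrays resolve, such as Bak1 1425716_s_at in marrow and 2 sets of Bmf.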
